A study of Xenopus laevis with 8 samples.

Results

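Neuropeptides and peptide hormones are made as larger precursor proteins, and a shared set of enzymes and granule proteins turns the precursors into active peptides. Here the genes of both kinds were followed in tadpole brains after CRISPR editing of neurod2. A list of 44 gene symbols was used, 36 for precursors and 8 for processing and granule proteins, and a row of the count table was a member when its symbol equalled one of them once the homeologue ending (L or S) and any copy number were removed. This gave 75 rows for 41 symbols out of 41881 rows, while tac3, calca and npvf matched no row under this rule. Of the 75 rows, 71 had enough reads to be tested.

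The libraries came from whole brains of Xenopus laevis at stage NF47. The edited animals were F0 CRISPants of NeuroD2, grown from injected eggs, with a guide RNA that cuts the DNA binding domain in the L and the S homeologue of the gene, and each brain was a mosaic of edited and unedited cells. Their controls were siblings that had received an injection of Cas9 alone, labelled wild type and named Cas9, and both groups came from 1 sibship. Each group had 4 pools of 4 brains, which in the labels are pools 3, 4, 7 and 9 of the CRISPants and pools 1, 2, 4 and 5 of the controls. Reads assigned to genes ranged from 18945762 to 25509904 in the CRISPant pools and from 20985937 to 25937707 in the control pools. The targeted gene was at 28.5, 31.1, 26.2 and 18.98 CPM (read counts scaled to library size) for neurod2.L in the CRISPant pools, against 36.9, 37.1, 38.6 and 32.9 CPM in the control pools (log2 fold change -0.47, edgeR adjusted p = 0.0075). The S homeologue, neurod2.S, averaged 36.6 ± 7.95 CPM in CRISPant brains and 46.5 ± 4.996 CPM in control brains (SD, n = 4 pools each) and did not pass (log2 fold change -0.34, edgeR adjusted p = 0.11), except without CRISPant replicate 4 (-0.47, adjusted p = 0.011) or without robust estimation (adjusted p = 0.025). The guide edits the coding sequence, so the transcript level does not measure how much of the gene was edited. All pools were of one sibship, so the spread behind each p-value is that among sibling pools.

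A precursor enters the regulated secretory pathway, where it is packed into dense-core granules together with chromogranins and secretogranins. Prohormone convertases cut it at pairs of basic residues, carboxypeptidase E trims the basic residues that remain, and many peptides are then amidated at the C terminus by peptidylglycine alpha-amidating monooxygenase. In the vertebrate brain many of these peptides are made in the hypothalamus, from which they control the pituitary, feeding and arousal, while others act as cotransmitters of local neurons.

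In CRISPant brains 18 of the 71 tested rows fell and 3 rose, whereas 50 stayed short of the threshold, with a median log2 fold change of -0.13, against -0.0022 over all genes. Over all 25171 genes tested, 42.4% passed, 20.8% lower and 21.7% higher, at an adjusted p under 0.05 in the quasi-likelihood test of edgeR. The corresponding shares of the members were 25.4% lower and 4.23% higher. The groups of 4 pools did not overlap for 14 members that were lower and 2 that were higher in CRISPants, and over all genes these shares were 18.5% and 19.4%, or 37.8% together. Most of the changes were small, and 17 of the 21 members that passed changed by less than 1.5-fold. Only prl.2.S changed by more than 2-fold, a size that 2% of all genes reached upwards and 1.58% downwards. Markers of proliferating cells rose in all 18 tested rows, and summed to between 1049 and 1345 CPM in the CRISPant pools, against 477 to 601 CPM in the control pools. Their part in the members' changes was not tested. In whole brains, fewer cells of a type and less RNA per cell cannot be told apart.

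The processing and granule proteins mostly fell. Of their 15 rows, all tested, 9 fell, 1 rose and 5 did not pass, which is 60% lower and 6.67% higher, beside 20.8% and 21.7% over all genes, and the median log2 fold change was -0.22. Their summed level was 2839, 3070.4, 2676 and 2900.0 CPM in the CRISPant pools, against 3197, 3329.7, 3239 and 3211 CPM in the control pools. In this sum the highest CRISPant pool lay below the lowest control pool. The share of rows that fell also depends on their reads and spread, and scg3.S, the lowest of these rows, had 37.2 CPM in control brains. The rows are mostly L and S copies of 8 genes. With homeologues summed, chga, cpe, pcsk2 and scg5 fell, and chgb, pam, pcsk1 and scg3 did not pass.

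The prohormone convertase gene pcsk2, whose product makes most of the final cuts in many brain precursors, fell in both homeologues. pcsk2.L, which lies at 28619642 to 28704520 on chromosome 5L (assembly v10.1), had the smallest p of any member. It was at 138.95, 139.2, 129 and 138.6 CPM in the CRISPant pools, against 184.6, 190.4, 191 and 169 CPM in the control pools. The CRISPant pools lay close together and well below the controls, with a log2 fold change of -0.43 ± 0.05 (SE, edgeR adjusted p = 2.0e-06). pcsk2.S was at 41.1, 46.3, 37.3 and 36.1 CPM in the CRISPant pools, against 46.7, 46.3, 49.4 and 50.3 CPM in the control pools. Here CRISPant pool 4 reached the lowest control pool, and the log2 fold change was -0.26 ± 0.07 (SE, edgeR adjusted p = 0.0063). The product of scg5, known as 7B2, is a chaperone that PC2, the product of pcsk2, needs for its maturation, and scg5 also fell in both homeologues. scg5.L was at 119.6, 128.6, 115 and 120.8 CPM in the CRISPant pools, against 150.4, 160.9, 140.7 and 135 CPM in the control pools. The groups did not overlap, with a log2 fold change of -0.28 ± 0.06 (SE, edgeR adjusted p = 6.6e-04). scg5.S was at 65.5, 68.9, 62.9 and 69.1 CPM in the CRISPant pools, against 78.9, 83.4, 76.8 and 81.5 CPM in the control pools, likewise with no overlap (log2 fold change -0.27 ± 0.05, SE, edgeR adjusted p = 5.1e-04). The other convertase gene, pcsk1.S, was at 35.5, 41.2, 33.8 and 36.8 CPM in the CRISPant pools, against 35.2, 40.7, 37.7 and 41.3 CPM in the control pools, and did not pass (log2 fold change -0.07 ± 0.07, SE, edgeR adjusted p = 0.46).

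**Figure D1:**
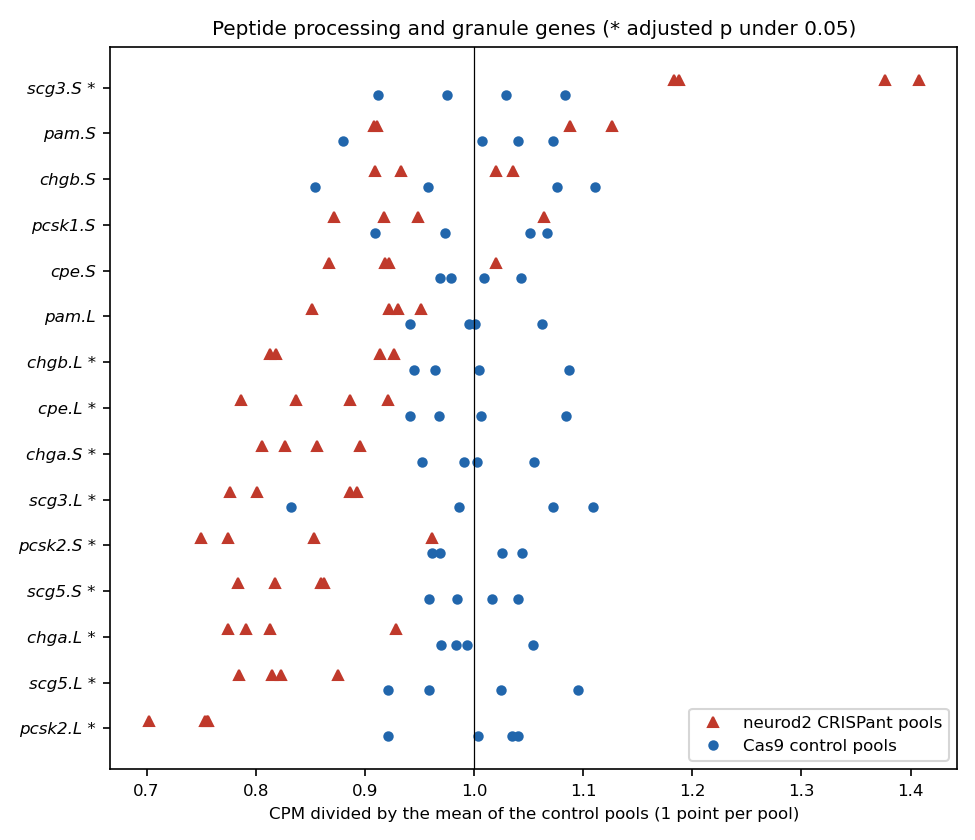
Levels of the 15 processing and granule rows in each pool, as CPM divided by the mean of the control pools on the horizontal axis; red triangles are the 4 CRISPant pools, blue circles the 4 control pools, and an asterisk marks an adjusted p under 0.05. The CRISPant pools of pcsk2.L, scg5, chga, cpe.L and chgb.L all lie left of their control pools, and those of scg3.S all lie to the right.

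Among the granule matrix proteins, chromogranin A fell in both homeologues. chga.L was at 144.9, 170.0, 142 and 149 CPM in the CRISPant pools, against 178, 182, 193 and 180.1 CPM in the control pools, with a log2 fold change of -0.27 ± 0.06 (SE, edgeR adjusted p = 7.4e-04). chga.S was at 114, 126, 117 and 121 CPM in the CRISPant pools, against 134, 149, 142 and 139.9 CPM in the control pools, with a log2 fold change of -0.24 ± 0.05 (SE, edgeR adjusted p = 0.0010), and for both rows the groups did not overlap. Chromogranin B fell in chgb.L, with 225, 253, 227 and 257 CPM in the CRISPant pools, against 262, 278, 301 and 267 CPM in the control pools, a log2 fold change of -0.20 ± 0.06 (SE, edgeR adjusted p = 0.0079). chgb.S was at 232, 253, 226 and 257 CPM in the CRISPant pools, against 212, 238, 267 and 276 CPM in the control pools, and did not pass (log2 fold change -0.04, edgeR adjusted p = 0.72). Between CRISPants and controls, the chgb L to S ratio did not pass a test of its own (limma, adjusted p = 0.15), and chgb with both homeologues summed did not pass either (-0.12, edgeR adjusted p = 0.10).

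The homeologues of scg3, a granule protein that binds chromogranin A and cholesterol-rich membrane, moved in opposite directions. scg3.S, on chromosome 3S from 51863976 to 51895779, was at 44.0, 52.3, 44.2 and 51.2 CPM in the CRISPant pools, against 33.9, 40.3, 36.3 and 38.3 CPM in the control pools. Every CRISPant pool was above every control pool, with a log2 fold change of 0.37 ± 0.07 (SE, edgeR adjusted p = 3.3e-04). scg3.L was at 66.9, 74.1, 64.8 and 74.6 CPM in the CRISPant pools, against 69.5, 82.4, 89.6 and 92.7 CPM in the control pools, with overlap at control pool 1. Its log2 fold change was -0.25 ± 0.08 (SE, edgeR adjusted p = 0.016), and the call was lost without CRISPant replicate 3 (-0.23, adjusted p = 0.051), without control replicate 4 (-0.22, adjusted p = 0.0505) and without control replicate 5 (-0.20, adjusted p = 0.056). With both homeologues summed, scg3 was at 118 ± 9.35 CPM in CRISPant brains and 120.7 ± 12.02 CPM in control brains (SD, n = 4 pools each), and did not pass (-0.03, edgeR adjusted p = 0.75).

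Carboxypeptidase E had the highest read counts of the members. cpe.L was at 663, 689, 588 and 627 CPM in the CRISPant pools, against 753, 811, 724 and 704 CPM in the control pools. Its groups did not overlap, with a log2 fold change of -0.22 ± 0.06 (SE, edgeR adjusted p = 0.0040). cpe.S was at 643, 712, 605 and 641 CPM in the CRISPant pools, against 727, 676, 683 and 704 CPM in the control pools, and did not pass (log2 fold change -0.10 ± 0.05, SE, edgeR adjusted p = 0.14). For cpe, too, the L to S ratio did not pass (limma, adjusted p = 0.25). With both homeologues summed, cpe fell (log2 fold change -0.16, edgeR adjusted p = 0.016). The amidating enzyme gene pam.L was at 255, 253, 233 and 261 CPM in the CRISPant pools, against 273, 291, 258 and 274 CPM in the control pools, close to the threshold (log2 fold change -0.13 ± 0.05, SE, edgeR adjusted p = 0.055). pam.S, at 51.4, 63.7, 51.5 and 61.5 CPM in the CRISPant pools, against 58.8, 60.6, 49.8 and 56.9 CPM in the control pools, had a log2 fold change of 0.01 (SE 0.08).

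Of the 56 precursor rows tested, 9 fell, 2 rose and 45 did not pass, and 36 had a negative log2 fold change. The shares were 16.1% lower and 3.57% higher, both under those over all genes (20.8% and 21.7%). A share of this kind also depends on the reads and the spread of the rows. Most precursor rows had fewer reads than scg3.S, the lowest processing row, at 37.2 CPM in control brains. Over the 71 tested members the median coefficient of variation was 13.7% in CRISPants and 12.3% in controls, against 9.24% and 8.63% over all genes. These medians include the processing rows, and none was taken over the precursors alone. The summed level of the precursors was 989.7, 1037, 832 and 930.3 CPM in the CRISPant pools, against 1063, 1209.5, 977 and 1029 CPM in the control pools, so that the groups overlapped. The rows that fell belonged to 9 different precursors. Both homeologues were tested for adcyap1, nmu, oxt, pmch and trh, and in none of these did both pass. For cartpt, gnrh2, nmb and npb only the L or only the S homeologue had a row, so both could not pass.

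Among the members that passed, cartpt.L, nmu.S and pmch.L, of the peptides of feeding and energy balance, had the largest falls. cartpt.L, the precursor of the CART peptides that reduce feeding in mammals, lies on chromosome 1L from 120819725 to 120828407. It was at 1.11, 1.07, 1.08 and 1.30 CPM in the CRISPant pools, against 2.09, 2.23, 2.34 and 1.79 CPM in the control pools. The groups did not overlap, and the log2 fold change was -0.89 ± 0.21 (SE, edgeR adjusted p = 0.0017), although these levels rest on 21 to 54 reads per pool. nmu.S, for neuromedin U, on chromosome 1S from 29587392 to 29623946, was at 3.33, 4.70, 3.27 and 5.28 CPM in the CRISPant pools, against 7.75, 7.65, 5.98 and 6.96 CPM in the control pools. The highest CRISPant pool was below the lowest control pool, with a log2 fold change of -0.77 ± 0.15 (SE, edgeR adjusted p = 3.8e-04). nmu.L had a log2 fold change of 0.08 (SE 0.20) and did not pass, and with both summed nmu fell by less (-0.50, edgeR adjusted p = 0.0086).

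Melanin-concentrating hormone is made by neurons of the hypothalamus and bears on feeding and sleep in mammals. Its gene pmch.L was at 6.66, 6.79, 5.34 and 8.89 CPM in the CRISPant pools, against 9.26, 9.09, 9.22 and 14.1 CPM in the control pools. The groups were separate by a narrow gap and control pool 5 stood above the other controls, with a log2 fold change of -0.59 ± 0.17 (SE, edgeR adjusted p = 0.0095). With both homeologues summed, pmch did not pass (log2 fold change -0.34, adjusted p = 0.069). Neuropeptide B, npb.L, was at 7.56, 9.71, 7.15 and 6.76 CPM in the CRISPant pools, against 13.3, 13.4, 8.37 and 9.78 CPM in the control pools. CRISPant pool 4 was above control pool 4, and the log2 fold change was -0.52 ± 0.16 (SE, edgeR adjusted p = 0.013). The other feeding peptides did not pass, among them neuropeptide Y, which stimulates feeding. npy.L was at 50.5 ± 5.38 CPM in CRISPant brains and 56.3 ± 6.33 CPM in control brains (SD, n = 4 pools each), with a log2 fold change of -0.15 ± 0.08 (SE, edgeR adjusted p = 0.15), and npy.S had the same log2 fold change (SE 0.07, edgeR adjusted p = 0.062). The orexin gene hcrt.L was at 1.07 ± 0.265 and 1.04 ± 0.265 CPM in CRISPant and control brains, and agrp.L, whose peptide opposes melanocortins, at 2.29 ± 0.953 and 1.90 ± 0.575 CPM.

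**Figure D2:**
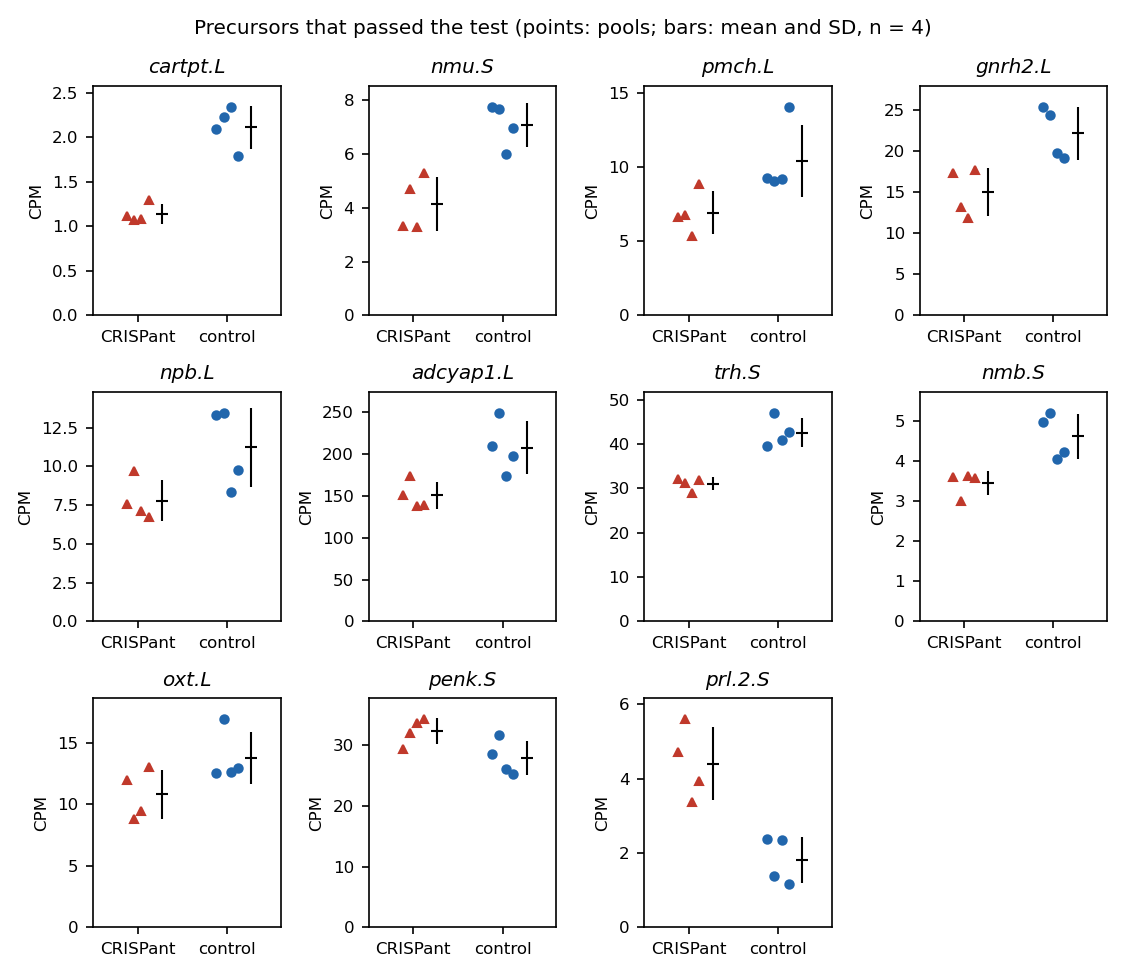
CPM per pool for the 11 precursor rows with an adjusted p under 0.05, CRISPant pools as red triangles on the left and control pools as blue circles on the right of each panel; bars give the mean and SD (n = 4 pools), and each vertical axis starts at 0. Mean levels are higher in CRISPants for penk.S and prl.2.S and lower in every other panel.

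Among the releasing hormones, thyrotropin-releasing hormone fell in the S homeologue. trh.S, on chromosome 4S from 111282705 to 111295505, was at 32.1, 31.2, 28.8 and 31.9 CPM in the CRISPant pools, against 39.6, 47.0, 40.8 and 42.7 CPM in the control pools. The CRISPant pools kept to a narrow band below all controls, with a log2 fold change of -0.45 ± 0.07 (SE, edgeR adjusted p = 1.8e-05). trh.L was at 16.6 ± 0.858 CPM in CRISPant brains and 15.7 ± 3.01 CPM in control brains (SD, n = 4 pools each) and had a log2 fold change of 0.08 (SE 0.11). With both homeologues summed, trh fell with a log2 fold change of -0.29 (edgeR adjusted p = 0.0015). gnrh2.L, the form of gonadotropin-releasing hormone made in the midbrain of many vertebrates, was at 17.3, 13.2, 11.9 and 17.7 CPM in the CRISPant pools, against 25.4, 24.4, 19.8 and 19.1 CPM in the control pools. The groups did not overlap, with a log2 fold change of -0.57 ± 0.13 (SE, edgeR adjusted p = 0.0032). The hypophysiotropic form gnrh1.L had 0 to 5 reads per pool and was not tested. Corticotropin-releasing hormone, which drives the stress axis, was at 6.29, 7.93, 6.80 and 7.04 CPM for crh.S in the CRISPant pools, against 5.81, 6.86, 3.64 and 5.88 CPM in the control pools. The groups overlapped and the row did not pass (log2 fold change 0.34, edgeR adjusted p = 0.076).

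The neurohypophysial hormones vasotocin and mesotocin are listed under the mammalian symbols avp and oxt. All 4 rows had negative log2 fold changes, from -0.35 for oxt.L to -0.17 for avp.S, and oxt.L passed. It was at 11.95, 8.76, 9.47 and 13.0 CPM in the CRISPant pools, against 12.5, 16.9, 12.6 and 13.0 CPM in the control pools (edgeR adjusted p = 0.034). The groups overlapped, and control pool 2 was above the other controls. The call was lost without control replicate 2 (log2 fold change -0.24, adjusted p = 0.13), without CRISPant replicate 4 (-0.26, adjusted p = 0.10) and without CRISPant replicate 7 (-0.30, adjusted p = 0.089). With both homeologues summed and all pools kept, oxt fell (log2 fold change -0.30, edgeR adjusted p = 0.028). Transcription factors of hypothalamic and forebrain neurons were lower in 8 of 29 rows (27.6%) and higher in none, beside 20.8% and 21.7% over all genes. Both homeologues of otp, which specifies neuroendocrine neurons, were among those that fell. The list summed to between 557 and 571 CPM in the CRISPant pools, against 623 to 698 CPM in the control pools. Much of this difference lay in otp. The means of otp.L and otp.S were 156 and 113 CPM in CRISPant brains, against 195 and 143 CPM in control brains. The part of these transcription factors in the levels of these peptides was not tested.

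Enkephalin, dynorphin and nociceptin are grouped here as opioid peptides, while pomc is described with the pituitary hormones. penk.S rose slightly and was at 29.5, 32.0, 33.7 and 34.3 CPM in the CRISPant pools, against 28.5, 31.6, 26.1 and 25.3 CPM in the control pools. The groups overlapped at control pool 2, and the log2 fold change of 0.21 ± 0.08 (SE, edgeR adjusted p = 0.030) did not pass without CRISPant replicate 7 (0.19, adjusted p = 0.070), CRISPant replicate 9 (0.19, adjusted p = 0.086), control replicate 4 (0.18, adjusted p = 0.090) or control replicate 5 (0.17, adjusted p = 0.11). penk.L was at 57.4 ± 4.29 CPM in CRISPant brains and 63.7 ± 4.16 CPM in control brains (SD, n = 4 pools each), with a log2 fold change of -0.15 ± 0.06 (SE, edgeR adjusted p = 0.065). With both homeologues summed, penk had a log2 fold change of -0.03 (edgeR adjusted p = 0.69), so that the rise was absent and the sign turned. The other rows of this group, of pdyn and pnoc, had log2 fold changes from -0.34 to 0.04 and did not pass.

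Of the remaining neuropeptides, which include transmitters of local circuits, adcyap1.L and nmb.S fell. adcyap1.L encodes PACAP, and was at 152, 173.3, 138 and 139.8 CPM in the CRISPant pools, against 210.2, 249, 173.4 and 197 CPM in the control pools, with a log2 fold change of -0.46 ± 0.11 (SE, edgeR adjusted p = 0.0069). Its highest CRISPant pool, pool 4, lay just below its lowest control pool, also pool 4. nmb.S, for neuromedin B, was at 3.597, 2.999, 3.62 and 3.56 CPM in the CRISPant pools, against 4.96, 5.19, 4.05 and 4.23 CPM in the control pools, with a log2 fold change of -0.42 ± 0.14 (SE, edgeR adjusted p = 0.023), and did not pass without CRISPant replicate 4 (-0.36, adjusted p = 0.069), control replicate 1 (-0.39, adjusted p = 0.066) or control replicate 2 (-0.37, adjusted p = 0.076). Both somatostatin rows were near the threshold, with log2 fold changes of -0.21 for sst.1.L (adjusted p = 0.093) and -0.18 for sst.1.S (edgeR adjusted p = 0.057). Substance P and neurokinin A come from tac1. tac1.L was at 54.0 ± 4.04 CPM in CRISPant brains and 53.7 ± 5.38 CPM in control brains, a log2 fold change of 0.01 (SE 0.07), and tac1.S had 0.03 (SE 0.07). The rows of cck, vip, nts, grp and cbln1 had log2 fold changes between -0.17 and 0.08, and none passed.

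**Figure D3:**
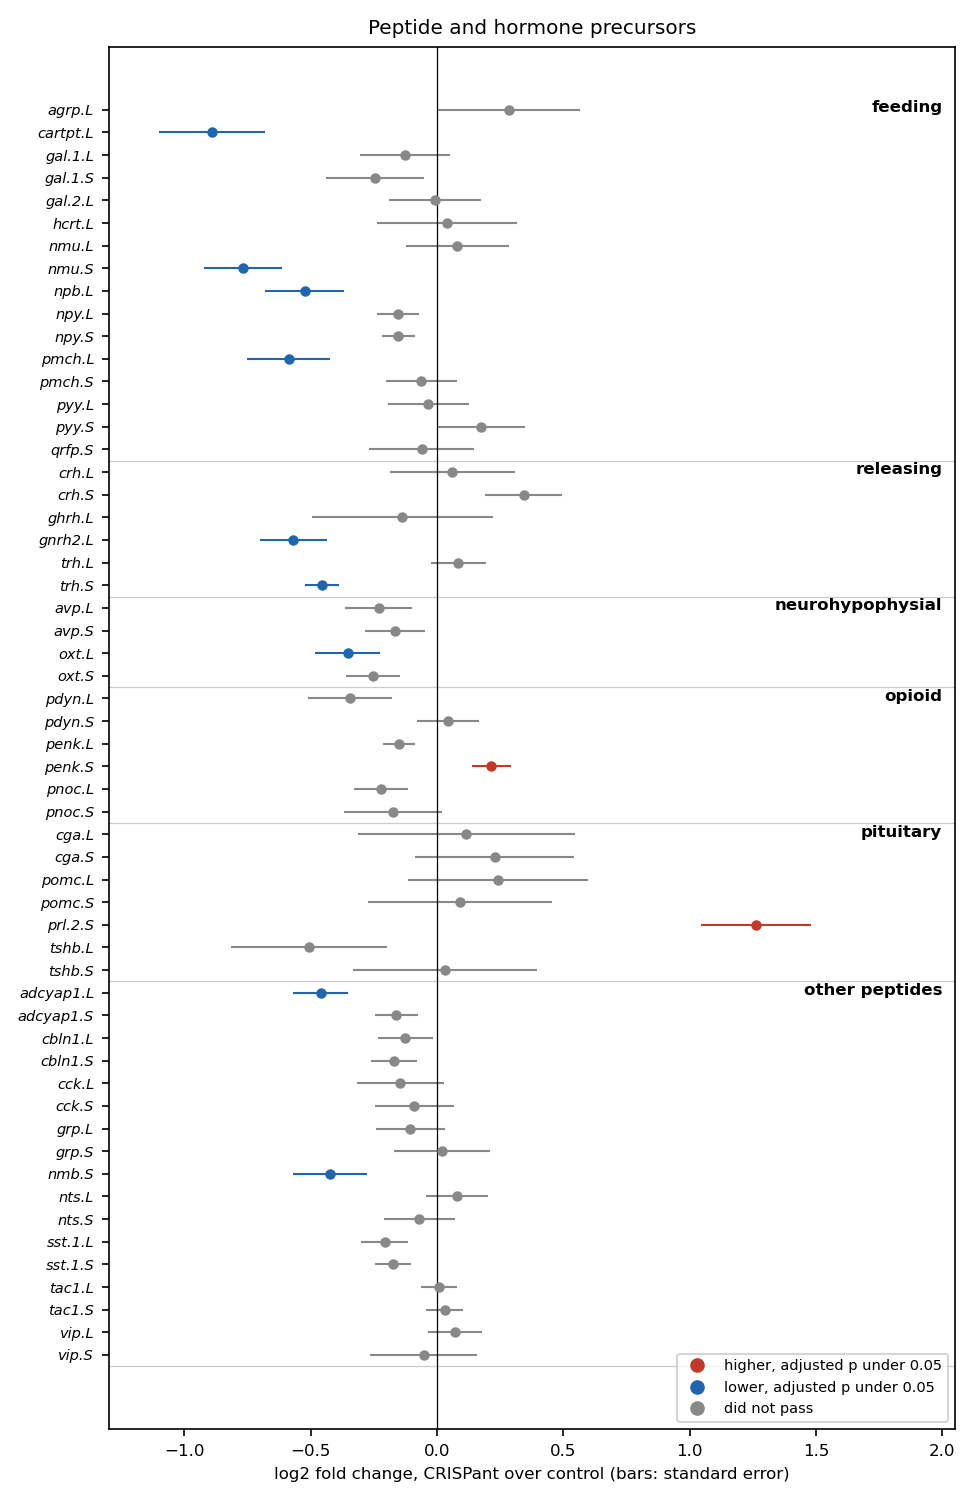
Log2 fold changes of CRISPant over control brains for the 56 tested precursor rows, grouped by role, with standard errors as bars; red and blue mark higher and lower rows with an adjusted p under 0.05, grey the rest. Most rows lie within 0.5 of 0, prl.2.S at 1.26 stands apart on the right, and rows of cga, pomc and tshb are among those with the widest bars.

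Several rows for hormones of the pituitary gland, though not all, varied widely among the CRISPant pools. The proopiomelanocortin gene pomc, expressed in pituitary cells and in neurons of the hypothalamus, was at 42.2, 41.4, 15.9 and 19.4 CPM for pomc.L in the CRISPant pools, against 26.96, 25.1, 26.1 and 22.2 CPM in the control pools. CRISPant pools 3 and 4 were thus above, and CRISPant pools 7 and 9 below, all of the control pools. pomc.S had the same order, at 30.3, 27.8, 11.97 and 12.3 CPM in the CRISPant pools, against 22.6, 18.1, 20.1 and 16.1 CPM in the control pools. The coefficient of variation of pomc.L was 47.1% over the CRISPant pools and 8.21% over the control pools. That of pomc.S was 47.7% and 14.5%, of cga.L 64.2% and 37.6%, of cga.S 46.9% and 23.0%, and of tshb.S 49.7% and 25.3%. It was smaller in CRISPants for tshb.L (21.1% and 45.2%) and prl.2.S (22.1% and 34.3%). The medians over the 71 tested members were 13.7% and 12.3% in CRISPants and controls, and those over all genes 9.24% and 8.63%. Neither pomc row passed, with log2 fold changes of 0.24 (SE 0.36, adjusted p = 0.63) for pomc.L and 0.09 (SE 0.36, edgeR adjusted p = 0.87) for pomc.S.

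Of the rows for the thyrotropin beta subunit (tshb) and for the alpha subunit it shares with the gonadotropins (cga), tshb.S and cga.S had CRISPant pools 3 and 4 above, and 7 and 9 below, all control pools. tshb.S was at 7.14, 5.76, 2.54 and 2.78 CPM in the CRISPant pools, against 4.57, 2.92, 5.62 and 4.56 CPM in the control pools, and cga.S at 5.40, 5.13, 2.02 and 2.45 CPM against 3.37, 2.69, 4.14 and 2.54 CPM. The other homeologues, cga.L and tshb.L, with few reads, did not share this order. cga.L was at 3.02, 1.93, 0.603 and 1.06 CPM in the CRISPant pools, against 1.59, 1.16, 2.25 and 0.987 CPM in the control pools. Its CRISPant pools 3 and 4 were above 7 and 9, but pools 4 and 9 lay within the range of the controls. tshb.L was at 0.952, 0.592, 0.947 and 0.972 CPM, lowest in pool 4, against 1.20, 1.99, 0.990 and 0.705 CPM. The summed level of pomc, cga and tshb was 88.9, 82.6, 34.0 and 38.9 CPM in the CRISPant pools, against 60.3, 51.9, 59.3 and 47.1 CPM in the control pools. Markers of the pituitary fixed as a list (gonadotropin and growth hormone genes and pituitary transcription factors, 15 rows, none of them a member) summed to 73.5, 70.1, 57.7 and 64.0 CPM in the same CRISPant pools, against 75.0, 73.8, 72.7 and 69.5 CPM in the control pools. Of the 10 marker rows tested, 3 fell (30%) and none rose, beside 20.8% and 21.7% over all genes. CRISPant pools 3 and 4 also lay apart from 7 and 9, in the other direction, in some markers from outside the pituitary. Blood markers summed to 944, 716, 1968 and 1640 CPM in CRISPant pools 3, 4, 7 and 9. Retina and pineal markers summed to 22.9, 22.3, 29.4 and 31.8 CPM in those pools, all within the range of the control pools (20.4 to 34.6 CPM). Markers of proliferating cells (1183, 1049, 1345 and 1318 CPM) and of connective tissue (361, 337, 397 and 367 CPM) also divided in this direction. Skeletal muscle markers, at 12.6, 16.5, 13.6 and 19.4 CPM, did not divide this way. Nor did the pancreas and gut markers or the transcription factors of hypothalamic and forebrain neurons. The targeted gene was higher in CRISPant pools 3 and 4 than in 7 and 9, as pomc was. It was at 28.5, 31.1, 26.2 and 18.98 CPM for neurod2.L and at 39.0, 45.7, 35.0 and 26.7 CPM for neurod2.S. Summed neuron markers (8240, 8983, 7975 and 8191 CPM) were also higher in pools 3 and 4. The part of the pituitary, or of other differences among the pools, in the hormone levels was not tested.

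prl.2.S, on chromosome 7S from 98745394 to 98751714, rose the most of all members. It is grouped here with the pituitary hormones by its symbol alone, and whether it encodes a prolactin was not checked, while the prl.1 rows lie on 6L and 6S. It was at 4.71, 5.604, 3.36 and 3.93 CPM in the CRISPant pools, against 2.36, 1.39, 2.34 and 1.18 CPM in the control pools. Every CRISPant pool was above every control pool, a 2.40-fold rise (log2 fold change 1.26 ± 0.22, SE, edgeR adjusted p = 1.2e-04). The rows prl.1.L, with 2 to 13 reads per pool, and prl.1.S, with 0 or 1, were not tested. agrp.S had no read in 7 pools and 2 reads in CRISPant pool 9, and a count of 0 allows up to 3 reads.

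**Figure D4:**
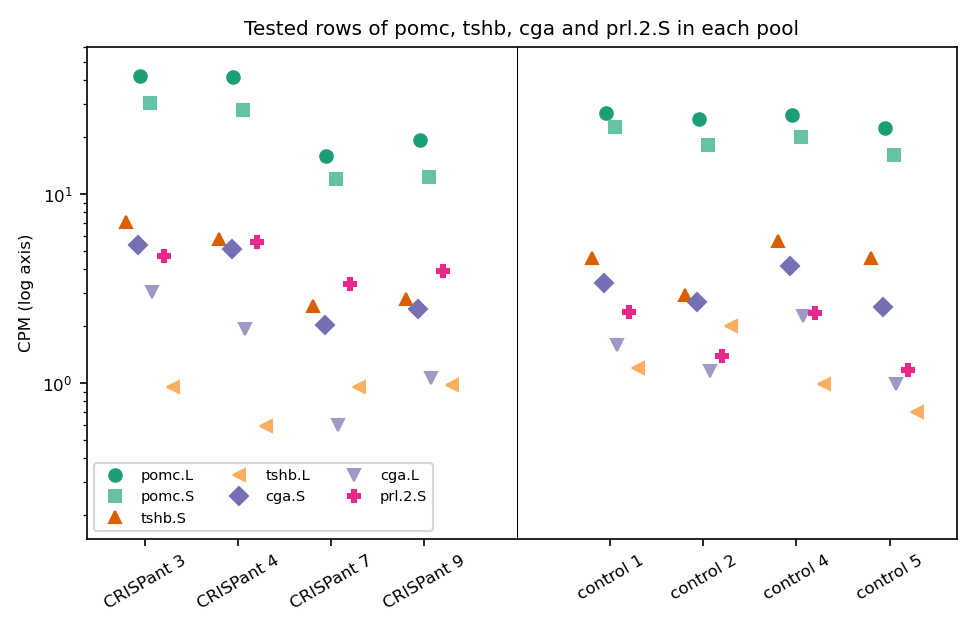
CPM of the 7 tested rows of pomc, tshb, cga and prl.2.S in each of the 8 pools on a log axis, CRISPant pools left of the line and control pools right of it. Among the CRISPants, the rows of pomc, cga and tshb.S are higher in pools 3 and 4 than in 7 and 9, tshb.L is lowest in pool 4, and prl.2.S is above all its control values in each of the CRISPant pools.

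Both homeologues were tested for 30 of the genes, and the share of reads on L in control brains ran from 17.2% for crh to 82.9% for pam. L had more reads than S in all 8 pools for 18 pairs and fewer in all 8 for 7 pairs. Between CRISPants and controls, 7 of the 30 pairs changed in their log2 ratio of L to S (limma, adjusted p under 0.05). This share was close to that over all 7427 pairs, 24.2%. The ratio was lower in CRISPant than in control brains for scg3 (difference -0.61, adjusted p = 0.0018), pmch (-0.50, adjusted p = 0.037), pdyn (-0.37, adjusted p = 0.031), penk (-0.37, adjusted p = 0.035) and adcyap1 (-0.30, limma adjusted p = 0.015). It was higher for nmu (0.86, adjusted p = 0.0074) and trh (0.55, limma adjusted p = 0.014). For nmu and trh the S homeologue, which fell, was the copy with more reads in all 8 pools. The count of member pairs was 4 without CRISPant replicate 9, where the share over all pairs was also smaller, at 18%. Reads shared by near-identical stretches of L and S could be split differently by the counting, whose settings for multi-mapping reads are not given in the sources used here.

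**Figure D5:**
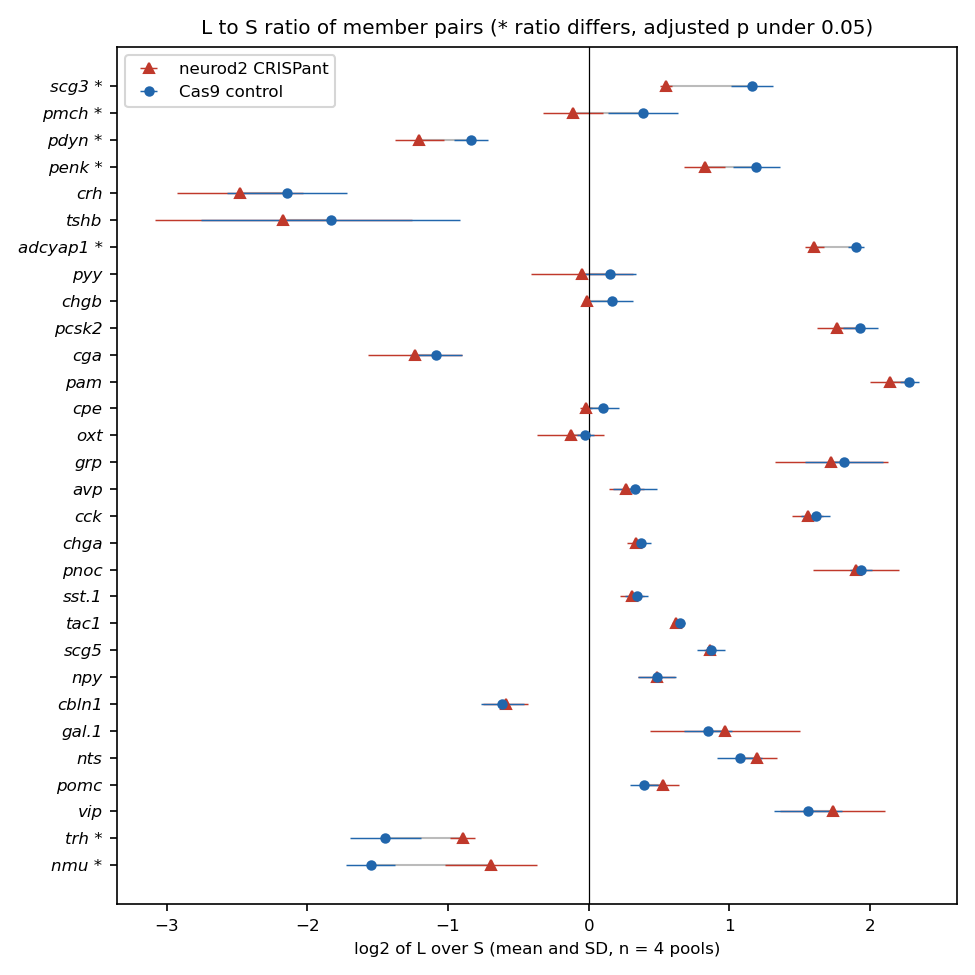
Log2 of the L over S ratio for 30 member pairs, as mean and SD over 4 CRISPant pools (red triangles) and 4 control pools (blue circles); pairs are ordered by the difference, and an asterisk marks an adjusted p under 0.05. The largest shifts are at both ends, with scg3 and pmch lower and trh and nmu higher in CRISPants, while npy, scg5 and tac1 overlie.

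By reads, without correction for the length of the transcripts, the members spanned nearly the whole range of control brains. cpe.L held the place 71 and cpe.S the place 86 among the 25171 genes tested, and chgb.L, pam.L and chgb.S followed. adcyap1.L, at place 728, led the precursors, and sst.1.L, penk.L, npy.L, adcyap1.S and tac1.L came next with 66.3 to 53.7 CPM in control brains. Neighbours among these 5 rows differed by less than the sum of their SDs. At the other end, crh.L, hcrt.L and ghrh.L had 1.16 CPM or less. This order is one of reads and not of transcripts, since longer transcripts give more reads.

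Receptors of neuropeptides were more often lower than higher. Of 112 tested rows from a list of receptor genes, 34 fell and 1 rose, which is 30.4% and 0.893%, beside 20.8% and 21.7% over all genes, with a median log2 fold change of -0.22. The smallest p belonged to galr3.L, a galanin receptor, with a log2 fold change of -0.69 (9.35 CPM in CRISPant and 15.1 CPM in control brains), followed by the relaxin-3 receptor rxfp3.L with -0.57, the neuromedin U receptor nmur1.L with -0.77 and the somatostatin receptor sstr5.S with -0.82. The log2 ratio of L to S changed for nmur1 (-0.60, limma adjusted p = 0.0047), so its homeologues did not move alike. For galr3, rxfp3 and sstr5 the ratio did not pass. The neurotensin receptor row ntsr1.S, named after its value was seen, rose with a log2 fold change of 0.46 (edgeR adjusted p = 0.027). No receptor row rose without CRISPant replicate 3 or 4, or without control replicate 2 or 5.

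Over all genes 20.8% of rows were lower and 21.7% higher. Other genes of granules and processing went both ways, with 27 of 79 tested rows lower (34.2%), 14 higher (17.7%) and a median log2 fold change of -0.14. syt7, a calcium sensor of slow and granule release, fell in both homeologues with log2 fold changes of -0.79 for L and -0.81 for S, and mon2, a factor of vesicle traffic at the Golgi, with -0.35 for L and for S. Enzymes that degrade peptides, listed with the binding protein crhbp, were split, with 10 of 32 tested rows higher (31.25%) and 9 lower (28.1%). The endothelin-converting enzyme ece1.L fell with -0.69 and the aminopeptidase lnpep.S with -0.65, while prolyl endopeptidase prep.L rose with 0.70 and neurolysin nln.L with 0.53. The homeologues of lnpep and prep did not move alike. Their log2 ratios of L to S changed by 0.54 and 0.60 (limma, adjusted p = 0.0012 and 0.0020), while that of ece1 did not pass (limma, adjusted p = 0.14). Among 41 tested rows of other peptide and hormone precursors, 7 fell (17.1%) and 4 rose (9.76%), both under the shares over all genes, and the median was 0.00092. The natriuretic peptide gene nppc.L fell with -0.48 and the stanniocalcin gene stc2.L with -0.96. nucb2, from which the feeding peptide nesfatin derives in mammals, rose in L with 0.48 and fell in S with -0.30, a change of 0.79 in its log2 ratio of L to S (limma, adjusted p = 7.0e-04). The other rows that rose, named after their values were seen, were gh2.S, stc1.L and stc1.S. Without CRISPant replicate 9, 4 of these precursor rows fell and 1 rose, and 4 fell and 2 rose without control replicate 1 or control replicate 2.

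Neuron markers summed to between 7975 and 8983 CPM in the CRISPant pools and between 8105 and 8721 CPM in the control pools. Of their 30 tested rows, 10 were lower (33.3%) and 3 higher (10%), beside 20.8% and 21.7% over all genes. Connective tissue markers rose in 7 of 13 tested rows and fell in 2 (337 to 397 CPM in CRISPant and 259 to 342 CPM in control pools). Blood markers rose in 2 of 12 (716 to 1968 and 934 to 1438 CPM), muscle markers rose in 3 of 9 and fell in 1 (12.6 to 19.4 and 11.7 to 15.3 CPM), and retina and pineal markers rose in 1 of 12 and fell in 1 (22.3 to 31.8 and 20.4 to 34.6 CPM in CRISPant and control pools). Of 23 rows for pancreas and gut, 9 had no read in any pool, both insulin rows among them. Both tested rows fell, cpa1.S for a pancreatic carboxypeptidase (log2 fold change -0.87) and gcg.2.L for glucagon (-0.92), and the sum of the list was 2.96 to 4.05 CPM in the CRISPant pools, against 4.47 to 6.66 CPM in the control pools, without overlap. The part of these cells in the members' changes was not tested.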

How the data were processed

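The authors pooled 4 whole brains per library, made stranded mRNA libraries, aligned single reads to XENLA_10.1 using DRAGEN, and obtained gene counts from FeatureCounts. The deposited table holds these whole-number counts for 41881 genes with no normalisation. Each of its 8 columns belongs to the pool whose library name it carries. Within a group, all pairs of pools differed beyond sampling noise, so each was kept as 1 replicate.

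Low genes were removed with filterByExpr (minimum count 10), and library sizes were scaled by TMM. The main test was the quasi-likelihood F-test of edgeR (version 4.0.16, R 4.3.3), robust, with a term for condition alone. Rose and fell mean a Benjamini-Hochberg adjusted p under 0.05 over the 25171 genes tested. SE values are the absolute log2 fold change over the square root of F. CPM used TMM library sizes. The L to S ratio was tested by limma 3.58.1 on log2 CPM (prior count 2), adjusted over 7427 pairs. Coordinates are those of RefSeq for the v10.1 assembly, which held 74 of the 75 member symbols.

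The members and all lists were chosen with earlier results of these data known. Any member could be named, with pool values for the 5 largest changes in each direction with a mean of at least 1 CPM, the 5 smallest p, pairs with both homeologues passing and processing genes, and, in other lists, the 4 smallest p. The highest levels per length, also in that rule, could not be picked without lengths. Further members, the pituitary hormones above all, got pool values after they were seen. Alternatives were median-of-ratios size factors, DESeq2 1.42.0, no filter, a filter of 1 CPM in 4 pools, edgeR without robust estimation, the likelihood ratio test, summed homeologues and each pool left out. The edgeR and limma steps were tested on simulated data.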

Additional observations from a re-analysis of the deposited data

Results flagged for a closer look

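In 142 groups of 4 pools (71 members, CRISPants and controls), Dixon's test at the 95% level set 1 pool apart in 8, and chance gives about 1 in 20. Among CRISPant pools these were pool 4 for nmb.S (2.999 CPM, nearest other 3.56), pool 7 for pcsk2.L (129 CPM, nearest 138.6), pool 4 for trh.L (17.9 CPM, nearest 16.3) and pool 4 for tshb.L (0.592 CPM, nearest 0.947). Among control pools they were pool 5 for npy.S (36.7 CPM, nearest 40.8), pool 2 for oxt.L (16.9 CPM, nearest 13.0), pool 5 for pmch.L (14.1 CPM, nearest 9.26) and pool 2 for pyy.L (7.60 CPM, nearest 5.19). The split of pomc over the CRISPant pools, with a pair of pools on either side of the controls, was not set apart by this test. It looks for 1 pool far from the rest, so it cannot flag a split into pairs.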

How the results depend on the processing

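Of the 21 members that passed, 17 did so under all 14 alternatives that keep the homeologues apart, and nmb.S, oxt.L, penk.S and scg3.L were each lost on leaving out 1 pool. With homeologues summed, chgb (-0.12, adjusted p = 0.10), penk (-0.03, 0.69), pmch (-0.34, 0.069) and scg3 (-0.03, 0.75) did not pass. Of the 50 others, 13 passed under some alternative. Summing, which leaves fewer features, gave 1 member and 2 receptor genes that rose, and 7 other granule and processing genes that rose beside 16 that fell. Leaving out 1 pool gave 0 to 1 receptor rows higher, 1 to 6 other precursor rows higher and 4 to 7 lower, and 4 to 6 member pairs with a changed ratio, against 7 with all pools. Over all pairs, the share with a changed ratio was 18% to 19.9% with 1 pool left out, against 24.2% with all pools.

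Log2 fold changes of 23 members that did not pass took either sign over the alternatives that keep the homeologues apart, leaving out 1 pool among them: cck.S -0.21 to 0.0082, cga.L -0.31 to 0.40, chgb.S -0.11 to 0.015, crh.L -0.072 to 0.22, gal.1.L -0.23 to 0.040, gal.2.L -0.15 to 0.18, ghrh.L -0.35 to 0.062, grp.S -0.17 to 0.10, hcrt.L -0.12 to 0.19, nmu.L -0.061 to 0.21, nts.S -0.16 to 0.012, pam.S -0.044 to 0.060, pdyn.S -0.065 to 0.14, pmch.S -0.21 to 0.041, pomc.S -0.14 to 0.28, pyy.L -0.13 to 0.13, pyy.S -0.0070 to 0.29, qrfp.S -0.21 to 0.10, tac1.L -0.044 to 0.070, tac1.S -0.026 to 0.084, tshb.S -0.25 to 0.23, vip.L -0.021 to 0.16 and vip.S -0.24 to 0.14. The causes were not tested.

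No paired analysis was run, because the labels do not match pools of one group to pools of the other. Levels per coding length were not run. Members under about 2 CPM rest on few reads, which limits their precision.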
